A study of Mus musculus with 12 samples.

Results

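The neutrophil granule genes examined here were *S100a8*, *S100a9*, *Ngp*, *Camp*, *Ltf*, *Elane*, *Mpo*, *Retnlg* and *Csf3r*, 9 genes taken by name from the 16971 that the authors listed. They were followed in GFP(+) cells sorted from livers of *Prom1CreERT2-nLacZ/+;Rosa26Lsl-GFP/+* mice of both sexes. All received tamoxifen at 6 weeks of age, 7 days before surgery, so age at collection rose with the day of the group. Day 0 was labeled sham. The other groups had their bile duct ligated (BDL), so that bile could not leave the liver, and were collected on day 3 or day 14. By the paper's account there were more females than males at day 0 and more males than females in both BDL groups. The strain was labeled C57BL/6, and the parent lines were kept as C57BL/6N for the Cre and C57BL/6J for the reporter. In this model *Prom1* drives the Cre, so GFP marks cells that expressed *Prom1* at the time of tamoxifen and their progeny. Cells came from the nonparenchymal fraction after red cell lysis, and the sort used GFP and exclusion of dead cells, with no antibody against blood cells named. The table holds 1 mean per group of counts normalized by the upper quartile, resting on 3 day 0, 3 BDL day 3 and 4 BDL day 14 libraries, although the labels describe 6 of BDL day 14. The paper states that 2 day 14 samples were dropped after sequencing because too few reads remained. The table has no value for a named library, so no test was run and no p-value is given. The authors' own p-values in it were not used, and the reads behind each library are unknown.

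Neutrophils carry their antimicrobial proteins in granules that are filled in order while the cell matures in the bone marrow. Azurophil granules come first, with myeloperoxidase (*Mpo*) and the serine protease neutrophil elastase (*Elane*). Specific granules come next, with the iron-binding protein lactoferrin (*Ltf*), the cathelicidin antimicrobial peptide (*Camp*) and neutrophilic granule protein (*Ngp*). *S100a8* and *S100a9* encode the subunits of calprotectin, which fills the cytosol rather than the granules and is also made by monocytes. *Retnlg* encodes a secreted resistin-like protein, and *Csf3r* the receptor for granulocyte colony-stimulating factor. Granule protein mRNA is made mostly by marrow precursors and is scarce in mature neutrophils, while *S100a8*, *S100a9* and *Csf3r* mRNA persists. Transcription of the granule genes is known to depend on C/EBP factors and on PU.1. In cholestatic liver, neutrophils are known to gather around injured hepatocytes and bile ducts.

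Members of a granule class lie close together in the genome in some cases. *Camp* (chromosome 9, 109847379 to 109849617), *Ngp* (110419747 to 110423012) and *Ltf* (111019271 to 111042767) follow each other on chromosome 9, separated by 570.1 and 596.3 kb. *S100a8* (chromosome 3, 90668978 to 90670035) and *S100a9* (90692632 to 90695721) are 22.6 kb apart. *Elane* (chromosome 10, 79886247 to 79888215) has *Prtn3*, the gene of proteinase 3, as a neighbor 3.1 kb away. *Mpo* lies on chromosome 11 (87793581 to 87804413), *Retnlg* on chromosome 16 (48872621 to 48874496) and *Csf3r* on chromosome 4 (126024550 to 126044440). These positions are on GRCm38, and all 9 genes had the same start and end in GENCODE M21.

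The 250 bases before the RefSeq start of 8 of these genes are shown, to set the granule genes beside the calprotectin genes, and *Elane* beside *Prtn3*, from which it differed in direction at BDL day 14. The sequences are those of RefSeq on GRCm38.p6, read 5′ to 3′ on the strand of the gene. Of the members shown, all but *S100a9* have a RefSeq start inside the gene positions given above, so part of each of those windows lies within the gene. The *Prtn3* window lies wholly within its gene. Capitals mark matches on either strand to TTGCNNAA, a C/EBP-type motif, to GAGGAAGT, a PU.1-type motif, and to TATAAA, the TATA box, and no matches of different motifs overlapped in the windows shown. They run over chr9:109849457-109849706 for *Camp* (minus strand), chr9:110419558-110419807 for *Ngp* (plus strand), chr9:111019042-111019291 for *Ltf* (plus strand), chr10:79886062-79886311 for *Elane* (plus strand), chr11:87793534-87793783 for *Mpo* (plus strand), chr10:79879417-79879666 for *Prtn3* (plus strand), chr3:90668821-90669070 for *S100a8* (plus strand) and chr3:90695722-90695971 for *S100a9* (minus strand).
Camp: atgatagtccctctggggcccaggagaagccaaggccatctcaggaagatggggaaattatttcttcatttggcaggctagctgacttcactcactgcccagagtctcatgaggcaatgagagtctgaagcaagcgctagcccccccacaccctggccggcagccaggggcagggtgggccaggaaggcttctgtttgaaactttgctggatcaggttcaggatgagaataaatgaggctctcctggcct
Ngp: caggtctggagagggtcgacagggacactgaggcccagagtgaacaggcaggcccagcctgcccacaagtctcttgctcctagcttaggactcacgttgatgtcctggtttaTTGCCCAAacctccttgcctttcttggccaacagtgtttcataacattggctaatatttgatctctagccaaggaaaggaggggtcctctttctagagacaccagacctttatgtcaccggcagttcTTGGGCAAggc
Ltf: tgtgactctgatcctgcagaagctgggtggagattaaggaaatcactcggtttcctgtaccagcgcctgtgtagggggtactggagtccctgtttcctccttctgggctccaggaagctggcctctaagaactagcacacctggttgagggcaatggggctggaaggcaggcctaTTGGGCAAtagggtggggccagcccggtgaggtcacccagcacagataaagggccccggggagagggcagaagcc
Elane: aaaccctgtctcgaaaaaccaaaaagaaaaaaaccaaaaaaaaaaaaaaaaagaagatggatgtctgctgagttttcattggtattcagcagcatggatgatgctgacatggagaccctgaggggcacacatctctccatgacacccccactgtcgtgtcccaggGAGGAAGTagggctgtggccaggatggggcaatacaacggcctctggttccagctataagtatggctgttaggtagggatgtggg
Mpo: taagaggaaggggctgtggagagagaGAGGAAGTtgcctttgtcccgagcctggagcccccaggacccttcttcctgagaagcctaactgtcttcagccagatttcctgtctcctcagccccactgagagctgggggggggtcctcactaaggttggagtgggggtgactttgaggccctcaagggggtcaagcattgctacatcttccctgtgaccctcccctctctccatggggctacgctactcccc
Prtn3: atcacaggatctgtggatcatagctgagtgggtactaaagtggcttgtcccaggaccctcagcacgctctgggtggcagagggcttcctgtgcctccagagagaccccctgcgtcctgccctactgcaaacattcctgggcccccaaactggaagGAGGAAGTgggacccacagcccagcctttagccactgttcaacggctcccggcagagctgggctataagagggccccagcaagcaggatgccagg
S100a8: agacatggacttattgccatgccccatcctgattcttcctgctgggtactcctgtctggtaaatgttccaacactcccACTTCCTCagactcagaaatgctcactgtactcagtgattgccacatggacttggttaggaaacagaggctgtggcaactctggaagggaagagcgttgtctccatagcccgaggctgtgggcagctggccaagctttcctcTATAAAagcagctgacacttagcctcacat
S100a9: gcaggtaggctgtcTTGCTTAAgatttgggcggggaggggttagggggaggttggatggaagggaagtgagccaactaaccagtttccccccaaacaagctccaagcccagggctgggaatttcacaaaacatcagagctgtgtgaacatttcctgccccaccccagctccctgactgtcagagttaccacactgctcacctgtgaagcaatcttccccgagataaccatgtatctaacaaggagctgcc

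All 9 genes had a promoter in the RefSeq table. The C/EBP-type motif was found in 4 of the 9 (*S100a9*, *Ngp*, *Ltf* and *Retnlg*) and in 9.56% of all 32851 promoter windows of the same length. *Ngp* held it at 2 places, from -138 to -131 and from -11 to -4 relative to the start. The PU.1-type motif was found in *S100a8*, *Elane* and *Mpo* and in 2.44% of all windows. *Prtn3* also held it, from -95 to -88, close to its place in *Elane*, from -85 to -78. Of the 9 genes, *S100a8* had a TATA box, from -30 to -25, against 12.4% of all windows. A match describes the letters of a window and is not a binding site.

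All 9 genes had their highest group mean at day 0, and 8 had their lowest at BDL day 14, while *Elane* was at the floor in both BDL groups. Summed over the genes, the authors' means came to 573 normalized counts at day 0, against 277 at BDL day 3 and 165 at BDL day 14. *S100a8* and *S100a9* together made up 74.9%, 68.0% and 71.9% of these sums. The sum of *Ngp*, *Camp* and *Ltf* was 51.9 at day 0 and 28.6, then 2.25, after BDL, so that it was 1.82-fold and 23.0-fold lower than at day 0. The azurophil genes *Elane* and *Mpo* summed to 10.2, 1.75 and 0.339. In sorted cells, fewer cells of a type and less RNA per cell cannot be told apart.

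**Figure D1:**
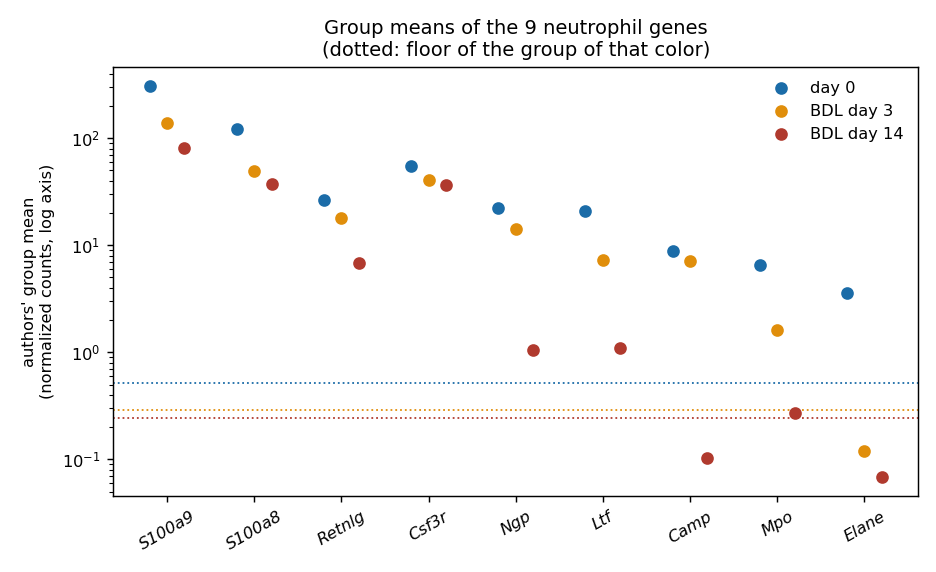
Authors' group means (normalized counts, log axis) of the 9 genes in the day 0, BDL day 3 and BDL day 14 groups, each point 1 group, with dotted lines at the floor of each group. The day 0 point is the highest of each gene, and *Camp* at BDL day 14 (0.103) and *Elane* in both BDL groups (0.119 and 0.0688) lie under the floor of their group.

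A gene was called lower or higher where its group means differed by more than 1.5-fold, the minimum fold stated in the study's methods. All 9 genes passed the minimum of 10 summed normalized counts, as did 12889 genes in all. *Elane* and *Mpo* passed it only through their day 0 libraries, which held 10.8 and 19.7 normalized counts, so their lower calls against day 0 are partly set by the filter. Within a group, a mean no larger than 4 times the smallest one (0.512, 0.292 and 0.244 in the 3 groups by day) was read as the floor, and folds against the floor are bounds. Called lower at BDL day 3 were 6 of the 9 genes, where 29.2% of all genes tested were lower. At BDL day 14, 8 of the 9 were lower, against 28.8% of all genes. Between BDL day 14 and BDL day 3, 6 of the 8 genes that could be compared were lower, against 19.6%. No member was called higher in any of the 3 comparisons, in which 19.2%, 21.2% and 21.2% of all genes were. The 9 genes had a median log2 ratio of -1.14 after 3 days and -4.26 after 14, beside -0.02 and -0.04 over all genes that passed the minimum. With the means at the floor set to the floor, the second median was -3.88. The comparisons against day 0 share the same day 0 libraries.

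The authors' geometric mean over the 10 libraries shows how far libraries of 1 group differed, since it falls below the group means as the spread grows. It gave 1 pooled SD per gene on the log2 scale, and from this the standard error (SE) of each log2 ratio. The pooled SD was 0.46 for *Csf3r*, 0.97 for *S100a8*, 1.02 for *S100a9*, 1.20 for *Retnlg*, 1.37 for *Elane* and 1.47 for *Camp*. It was largest for *Ltf* (1.75), *Ngp* (1.93) and *Mpo* (2.64), beside a median of 0.576 over all genes that passed the minimum. A difference that was both over 1.5-fold and over 2 SE was found for 1 of the 9 genes at BDL day 3, *Elane*, while 15.0% of all genes were lower by this rule. At BDL day 14 it was found for 8 of the 9, against 16.8%, and between BDL day 14 and BDL day 3 for 3 of 8, *Ngp*, *Camp* and *Ltf*, against 10.6%. The reductions at BDL day 3 were thus mostly within 2 SE. The calls of *Elane* and *Mpo* against day 0 are also here partly set by the filter. Where a mean was at the floor (*Elane* in both BDL groups, *Camp* at BDL day 14), the ratio was taken without its bound. For these genes the pooled SD assumes the same spread at the floor as at day 0, and may understate that of day 0.

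**Figure D2:**
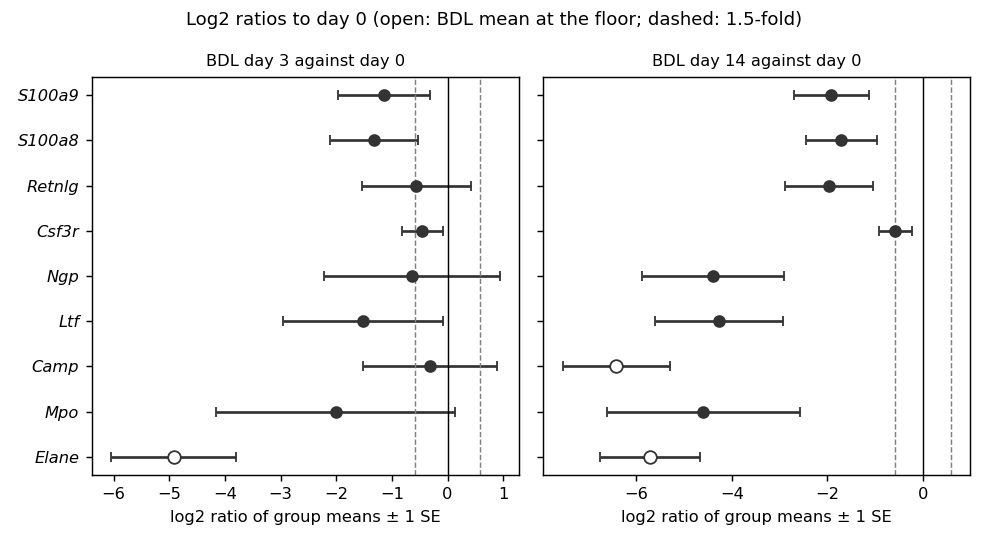
Log2 ratios of the authors' group means to day 0 for the 9 genes, at BDL day 3 (left) and BDL day 14 (right), with bars of 1 SE from the pooled SD and dashed lines at 1.5-fold. At BDL day 3 the SE bars of *Retnlg*, *Ngp*, *Camp* and *Mpo* cross 0, while at BDL day 14 *Ltf*, *Ngp* and *Mpo* lie at -4.26, -4.39 and -4.60 and *S100a8*, *S100a9* and *Retnlg* between -1.71 and -1.97. Open points (*Elane* in both panels, *Camp* at BDL day 14) rest on a mean at the floor, which supports only ratios of -3.63, -3.88 and -5.17 or lower.

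*S100a9* was the most abundant of the 9 genes, with means by day of 306, 139 and 80.9 normalized counts. Its rank among the listed genes went from 250 at day 0 to 695 and 1156. Its log2 ratio to day 0 was -1.14 (SE 0.83) at BDL day 3 and -1.92 (SE 0.78) at BDL day 14. The highest library held 458 normalized counts, more than the 417 of all BDL day 3 libraries together or the 324 of BDL day 14, and so was a day 0 library. The other day 0 libraries averaged 230.0, which was still 1.65-fold above BDL day 3 and 2.84-fold above BDL day 14.

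*S100a8*, the partner subunit, followed it with means of 123, 49.1 and 37.6. The log2 ratios to day 0 were -1.32 (SE 0.79) at BDL day 3 and -1.71 (SE 0.74) at BDL day 14. The highest library (212) was of day 0 and made up 57.5% of that group's sum, and the others averaged 78.5, 1.60-fold and 2.09-fold above BDL day 3 and BDL day 14. The mean of *S100a9* was 2.49 times that of *S100a8* at day 0, and 2.83 and 2.15 times after BDL. From BDL day 3 to BDL day 14, *S100a8* had a log2 ratio of -0.38 (SE 0.74) and *S100a9* one of -0.78 (SE 0.78), neither over 2 SE.

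*Ngp* had means of 22.2, 14.2 and 1.06. Against day 0 it had log2 ratios of -0.64 (SE 1.58) and, at BDL day 14, -4.39 (SE 1.48), a 20.9-fold lower mean. The highest library, with 40.7 normalized counts, could belong to day 0 or to BDL day 3. In day 0 it would hold 61.1% of the sum and leave a mean of 12.9, under that of BDL day 3. In BDL day 3 it would hold 95.5% and leave 0.950, close to the BDL day 14 mean. Either way the order of *Ngp* between day 0 and BDL day 3, or between BDL day 3 and BDL day 14, rested on that library.

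*Camp* had means of 8.79 and 7.09 and then, in the BDL day 14 group, of 0.103. That last mean was at the floor, with a fold of at least 36.0 against day 0. The log2 ratio at BDL day 3 was -0.31 (SE 1.20). Its highest library, of 17.7 normalized counts, could again stand in day 0 (67.1% of the sum) or in BDL day 3 (83.2%). Taken out of day 0, it left a mean of 4.33, below BDL day 3 and at least 17.8-fold above BDL day 14. Taken out of BDL day 3, it left 1.79.

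*Ltf* had means of 20.9, 7.28 and 1.09. Its log2 ratios to day 0 were -1.52 (SE 1.43) at BDL day 3 and -4.26 (SE 1.34) at BDL day 14. Here the highest library (32.3) was a day 0 library with 51.5% of the day 0 sum, and the others averaged 15.2, which was 2.09-fold above BDL day 3 and 13.9-fold above BDL day 14. Of the specific granule members, *Ltf* was thus lower at BDL day 3 also without its highest library, while *Ngp* and *Camp* were not if theirs came from day 0.

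*Mpo* had means of 6.57, 1.63 and 0.270. The log2 ratios to day 0 were -2.01 (SE 2.15) and -4.60 (SE 2.02), so that the spread between libraries was as wide as the BDL day 3 difference. The highest library (13.2), again of day 0, made up 67.0% of that group, whose mean without it was 3.26. *Elane*, the rarest member, had a mean of 3.60 at day 0, and both of its means after BDL (0.119 and 0.0688) lay at the floor. Its folds against day 0 were thus bounds, of at least 12.3 and 14.8. Its highest library (6.36) was also of day 0, with 58.9% of the sum, and the others averaged 2.22.

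*Retnlg* had means of 26.7, 18.1 and 6.81 normalized counts. Its log2 ratio to day 0 was -0.56 (SE 0.98) at BDL day 3 and -1.97 (SE 0.92) at BDL day 14. The highest library, of 49.4, could stand in day 0, leaving 15.3, or in BDL day 3, leaving 2.45. *Csf3r* differed least between groups, with means of 55.0, 40.3 and 36.8. Its 1.49-fold lower mean at BDL day 14 stood just short of the 1.5-fold minimum, with log2 ratios of -0.45 (SE 0.37) and -0.58 (SE 0.35). Its rank moved from 1643 at day 0 to 2662 at BDL day 14. The highest *Csf3r* library (69.4) could stand in any group.

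**Figure D3:**
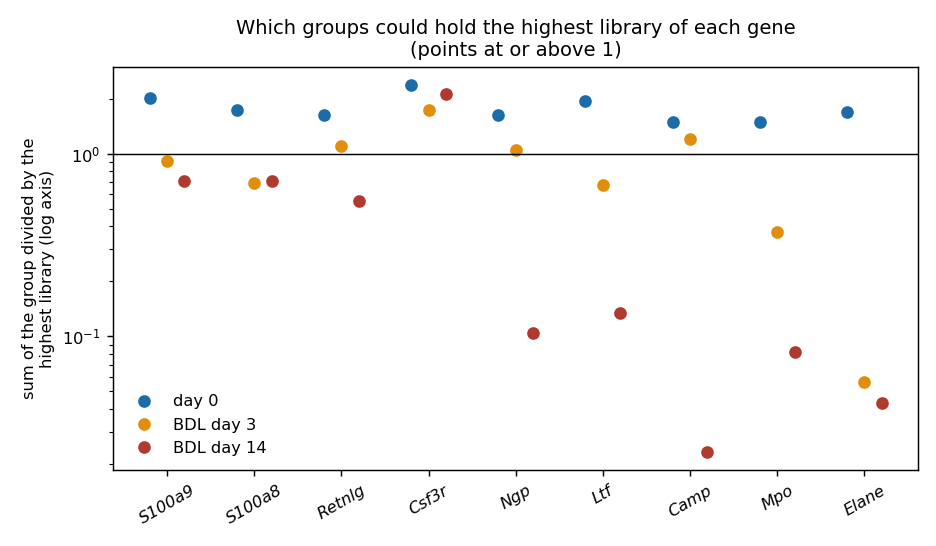
Sum of the authors' normalized counts of each group divided by the highest library of the gene (log axis), for the 9 genes. A group under the line at 1 is too small to hold that library, so it was of day 0 for *S100a9*, *S100a8*, *Ltf*, *Mpo* and *Elane*, of day 0 or BDL day 3 for *Retnlg*, *Ngp* and *Camp*, and of any group for *Csf3r*.

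For the 5 genes whose highest library was placed, that library held 49.9% to 67.0% of the day 0 sum, where an equal share would be 33.3%. Over the 1346 genes whose highest library was likewise placed in day 0, the median share was 54.3%. The sums also limit how the other libraries can lie. For *Ngp*, *Camp*, *Ltf*, *Elane* and *Mpo*, at least 2 of the 3 day 0 libraries were above each of the 4 BDL day 14 libraries, which held for 6.49% of all genes that passed the minimum. Against BDL day 3 the sums settled this for *Elane* among the 9, and for 8.37% of all genes, and left it unsettled for the other members. The 4 other members may have had overlapping libraries between day 0 and BDL day 14. *Elane* and *Mpo* passed the minimum only through day 0, so their separation from the BDL groups is partly set by the filter. *Camp* was at the floor at BDL day 14.

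Per kilobase of exon, the levels at day 0 were in the order *S100a9* (586 normalized counts per kb), *S100a8* (177), *Retnlg* (45.0), *Ngp* (18.2), *Csf3r* (15.2), *Camp* (11.6), *Ltf* (6.06), *Elane* (3.66) and *Mpo* (1.92). The step from *S100a9* to *S100a8* was 1.73 on the log2 scale (SE 0.81) and that from *S100a8* to *Retnlg* 1.98 (SE 0.89), both over 2 SE. The other 6 steps between neighbors in this order were within 2 SE. Each SE took the genes of a step as varying independently, although they came from the same day 0 libraries. How they vary together cannot be had from group means, so these readings against 2 SE are rough. At BDL day 14 the levels per kb were 155 for *S100a9*, 54.2 for *S100a8*, 11.5 for *Retnlg* and 10.2 for *Csf3r*. The granule genes then had levels of 0.867 (*Ngp*), 0.316 (*Ltf*), 0.136 (*Camp*), 0.0789 (*Mpo*) and 0.0699 (*Elane*) per kb. Those of *Camp* and *Elane* were at the floor.

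Other neutrophil genes did not all follow the 9. A list of 18 further genes of granules, cytosol and receptors was examined, of which 17 were listed by the authors and 15 passed the minimum. At BDL day 3, 7 of these 15 were lower and none was higher, beside 29.2% and 19.2% of all genes. At BDL day 14, 7 were lower, 6 were higher and 2 were neither, with 5 lower and 4 higher by over 2 SE. *Padi4*, higher by both rules, reached the minimum only through BDL day 14, so its calls are partly set by the filter. Over all genes, 28.8% were lower and 21.2% higher by fold, and 16.8% and 13.2% also by over 2 SE. Their median log2 ratios to day 0 were -0.56 and 0.03. *Ms4a3*, a gene of granulocyte precursors, is not analysed here.

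The azurophil protease genes parted at BDL day 14. *Prtn3* had means of 3.95, 1.91 and 8.08, with log2 ratios to day 0 of -1.05 (SE 0.53) and 1.03 (SE 0.50). The mean of its neighbor *Elane* was 0.911 times that of *Prtn3* at day 0. At the floor, it was at most 0.153 times that of *Prtn3* at BDL day 3 and at most 0.0302 times at BDL day 14. The highest *Prtn3* library (12.6) was of BDL day 14. *Cd177*, the gene of a neutrophil surface protein that also sits in specific granules and binds proteinase 3 in human cells, was also higher, with means of 3.78, 3.93 and 11.7 (BDL day 14 log2 ratio to day 0 1.63, SE 0.46). *Ctsg*, the gene of the granule protease cathepsin G, was under the minimum, with means of 0.900, 0.664 and 0.318.

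*Lcn2*, the gene of the specific granule protein lipocalin 2 that other cells also make, had means of 82.1, 24.0 and 39.2, with a day 0 library of 178 normalized counts. Without that library its day 0 mean was 34.1, under that of BDL day 14. The gelatinase granule genes differed in direction. *Mmp9* had a log2 ratio to day 0 of -1.03 (SE 0.33) at BDL day 14 and *Mmp8* one of 0.93 (SE 0.49). *Padi4*, whose product citrullinates histones in neutrophils, was higher at BDL day 14 (1.11, SE 0.49), as was *Anxa1*, which encodes annexin A1 and is widely expressed (1.75, SE 0.32). *Padi4* reached the minimum only through its BDL day 14 libraries, which held 13.5 normalized counts, so its higher call is partly set by the filter. *Wfdc21* was lower at both time points (-1.56, SE 0.68, and -1.83, SE 0.63).

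Among the receptors, *Fpr1*, which senses formylated peptides, went from a mean of 160 to 101 and 18. Its log2 ratio to day 0 at BDL day 14 was -3.15 (SE 0.52). The related *Fpr2* had log2 ratios of -0.90 (SE 0.54) and -1.86 (SE 0.51). *Cxcr2*, the chemokine receptor that draws neutrophils into tissue, had means of 7.34, 6.01 and 4.36. *Trem1* and *Il1r2* had log2 ratios at BDL day 14 of 0.25 (SE 0.55) and 0.76 (SE 0.53). *Ly6g*, the gene of the surface marker by which mouse neutrophils are usually identified, was under the minimum. Its means were 0.563 at day 0, close to the floor of 0.512, and 0.419 at BDL day 3. At BDL day 14 it was at 0.061, the lowest value of that group, so its fold against day 0 was a bound, of at least 2.31.

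**Figure D4:**
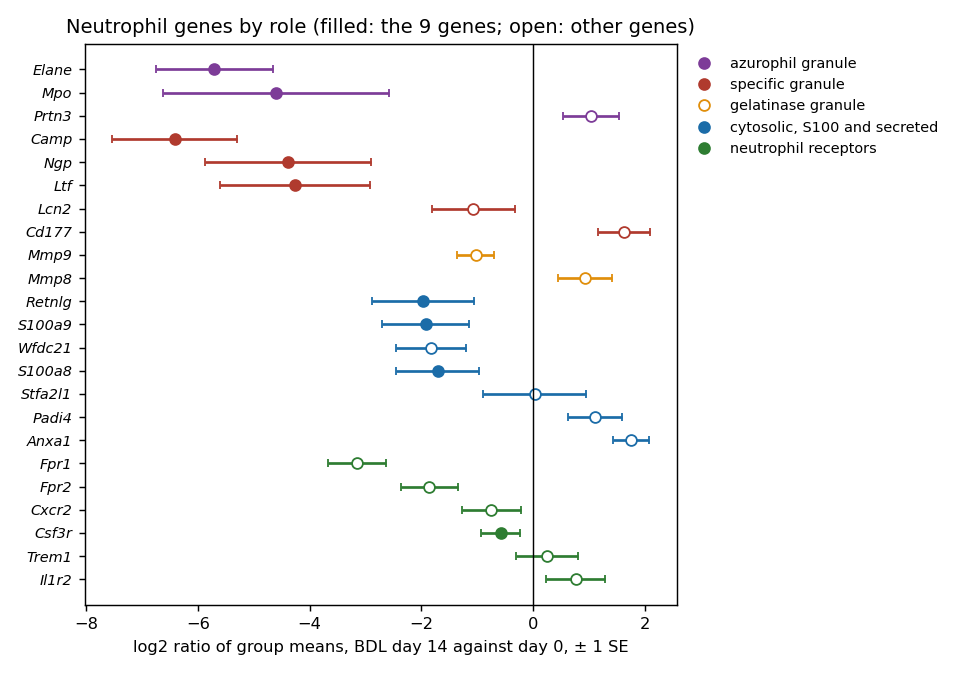
Log2 ratios of the authors' group means, BDL day 14 against day 0, with bars of 1 SE, for neutrophil genes that passed the minimum, grouped by role. The 9 members (filled) lie left of 0, while *Prtn3*, *Cd177*, *Mmp8*, *Padi4*, *Anxa1* and *Il1r2* (open) lie right of it by over 1.5-fold. The BDL day 14 means of *Camp* and *Elane* are at the floor, so their points stand for bounds of -5.17 and -3.88 or lower. *Padi4* reached the minimum only through BDL day 14.

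Genes that act upstream of neutrophils were examined as well. *Cxcl1* and *Cxcl2*, which encode chemokines that attract neutrophils through *Cxcr2*, had day 0 means of 18.7 and 136. At BDL day 3 the means were 1.96 and 34.0, and at BDL day 14 1.53 and 24.1. Their log2 ratios to day 0 were -3.25 (SE 0.76) and -2.0 (SE 0.53) in the first comparison, and -3.61 (SE 0.71) and -2.50 (SE 0.50) in the second. *Il1b* had log2 ratios of -0.95 (SE 0.63) and -1.10 (SE 0.59). Of the transcription factors of granulocyte development, *Spi1*, which encodes PU.1 and is also high in macrophages, had means of 200, 397 and 188. *Cebpa* had means of 108, 163 and 137 and *Cebpb* of 115, 104 and 43.4. *Gfi1*, a repressor needed for neutrophil maturation, was under the minimum and went from 1.63 to 0.505 and 0.111. *Tlr4*, a receptor for *S100a8* and *S100a9* protein, had means of 29.9, 33.2 and 35.1. *Bsg*, another, had 246, 289 and 214, and *Ager* 2.91, 1.45 and 2.30.

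Markers of several other cell types were lower together with the 9 genes. All 13 genes of the B cell, T and NK cell and erythroid lists were lower than at day 0 by over 1.5-fold at both time points, where 29.2% and 28.8% of all genes were. By over 2 SE, 8 of the 13 were lower at BDL day 3, with none of the T and NK cell genes among them, and 13 at BDL day 14. Without the highest library, which was of day 0 for each (a choice made after the data were seen), 10 and 13 of them were lower by over 1.5-fold, and *Trbc2* turned to a log2 ratio of 0.57 at BDL day 3. The summed means of the 4 B cell genes were 180.2, 49.1 and 21.3, those of the 4 T and NK cell genes 74.0, 19.9 and 4.04, and those of the 5 erythroid genes 74530, 7729 and 4483, and no gene of these lists was at the floor in any group. The 5 monocyte genes, some of which share cells with *S100a8* and *S100a9*, summed to 289.9, 352 and 1407, of which *Chil3* had 14.7, 90.4 and 858, while *Ly6c2* had 21.9, 8.19 and 6.69. These genes did not move together. At BDL day 14, 3 were higher and 2 lower than at day 0 by over 1.5-fold, where 21.2% and 28.8% of all genes were. By over 2 SE as well, 3 were higher and 1, not *Ly6c2*, was lower, against 13.2% and 16.8%. The 5 hepatocyte genes summed to 3081, 884 and 351, and the 5 mesenchymal genes to 988, 17.9 and 90.7. The 6 macrophage genes summed to 6932, 12958 and 15488, and without *Lyz2*, which neutrophils and monocytes also express, to 4652, 8398 and 4288. The 4 Kupffer cell genes summed to 8518, 16949 and 1095. The 6 cholangiocyte genes, markers of the cells named in the labels, summed to 510.1, 200 and 826, of which *Spp1*, also a macrophage gene, had 459, 175 and 792, and *Krt19* had 21.5, 12.7 and 14.3. The part of these cells in the levels of the 9 genes was not tested.

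By their pattern over the 3 groups, the genes nearest to *S100a8* among 11085 genes with a mean of at least 1 in each group included *Tdo2*, *Il18rap*, *Dusp2* and *C9*, with distances of 0.040 to 0.081 between their pairs of log2 ratios to day 0. *Tdo2* and *C9* are known from hepatocytes, and *Il18rap* and *Dusp2* from lymphocytes and other leukocytes. *Tdo2* had means of 21.5, 8.42 and 6.44. The genes nearest to *S100a9* were *Gm28661*, *Nupr1*, *Ifit3*, *Pafah2* and *Gm13340*, at distances of 0.027 to 0.078. None of these is a gene of the neutrophil lists. A pattern over 3 group means is matched by many genes and is given as a description.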

How the data were processed

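GFP(+) cells of 12 labeled libraries were sequenced as mRNA. The authors trimmed the reads at a quality of 20 and a length of 25, aligned and counted them with STAR in Partek Flow on mm10 with GENCODE M18 (the submitters' processing notes give STAR 2.6.1d), and then scaled the counts by each library's upper quartile. The deposited table holds signal values, namely the authors' normalized count mean of each group and, over the 10 libraries, the sum, highest library, geometric and arithmetic mean. It also holds the authors' p-values, FDR, ratios, fold changes and limits, which were not used. A total of 2 repeated symbols were dropped. Group sizes of 3, 3 and 4 returned the deposited sums best. No column names a single library, so no test planned on values per library was run.

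The pooled SD was derived from the weighted geometric mean of the group means over the deposited geometric mean, with 7 degrees of freedom, assuming log-normal values and 1 spread for all groups. The second highest day 0 library was bounded from the day 0 sum minus the highest library. The floor rests on the assumption that the smallest mean of a group stands for an offset of roughly 1 read in each library. Exon lengths came from GENCODE M21, and analyses used Python 3.11.15, pandas 2.3.3 and NumPy 2.4.6. The 9 genes and the marker lists were chosen with earlier results of these data known. Named were all 9 genes, neutrophil list genes with a mean of at least 10 in a group or the highest or lowest ratio, the most abundant genes of marker lists, and the 5 genes nearest to *S100a8* and to *S100a9*. *Prtn3*, *Padi4*, *Cxcr2*, *Ctsg*, *Ly6g*, *Gfi1*, *Ager*, *Krt19*, *Ly6c2*, *Mcpt8*, *Fcer1a*, *Cpa3*, *Kit*, *Flt3* and *Trbc2* fall outside this rule and were named after their values were seen. Some genes that the rule would name are not reported here. Alternatives were a 2-fold minimum, no filter, a mean of at least 10, pseudocounts of 1 and 0.1, median-ratio scaling and the genes without their highest library.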

Additional observations from a re-analysis of the deposited data

How the results depend on the processing

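The number of the 9 genes called lower was 6 at BDL day 3, 8 at BDL day 14 and 6 of 8 between BDL day 14 and BDL day 3. Pseudocounts of 1 and 0.1, median-ratio scaling and leaving out the highest library where its group was known gave the same numbers, and a 2-fold minimum gave 5, 8 and 5. Dropping the filter could not change them, as all 9 genes passed it. The highest library was placed only for *S100a8*, *S100a9*, *Ltf*, *Elane* and *Mpo*, always in day 0. Leaving it out thus could not change the comparison of BDL day 14 with BDL day 3, nor the other genes. With a mean of at least 10, which leaves 5 of the 9 genes to be tested, 3, 4 and 3 were called. A pseudocount of 1 moved the log2 ratios of genes at the floor, to -2.04 and -2.11 for *Elane* against day 0, and for *Camp* to -3.15 against day 0 and -2.87 against BDL day 3. Asking also for 2 SE, chosen after the data were seen, gave 1, 8 and 3.

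Taking the highest library out of the group with the higher mean wherever that group could hold it, also chosen after the data were seen, gave 5, 8 and 4. At BDL day 3 against day 0 it turned the log2 ratios of *Ngp* (0.13), *Camp* (0.71) and *Retnlg* (0.24), and between BDL day 14 and BDL day 3 those of *Ngp* (0.16), *Retnlg* (1.47) and *Csf3r* (0.52). No other alternative turned the direction of a gene. Leaving out each replicate in turn could not be done on group means. No paired analysis was possible because the labels give no replicate numbers shared between groups and the values are group means. Low levels limit *Elane*, *Camp* and *Mpo* most, and without depths no counting error could be given.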

Other observations

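Markers of other granulocytes and of blood progenitors were also present at low levels. Of 6 eosinophil, basophil and mast cell genes, 4 were listed by the authors and 1, *Siglecf*, passed the minimum, with means of 1.59, 6.84 and 3.60 by day (log2 ratios to day 0 of 2.10, SE 1.34, and 1.18, SE 1.25). The others were under the minimum. *Mcpt8*, a basophil protease gene, had means of 0.128 (the floor), 0.483 and 0.810. Its BDL day 3 mean lay under the day 0 floor of 0.512, so no direction can be read there. *Fcer1a* had 0.996, 0.0883 and 0.875 and *Cpa3* 0.514, 0.119 and 1.37, both at the floor at BDL day 3. The progenitor genes *Kit*, *Cd34* and *Flt3*, which other liver cells also express, had means of 12.2, 26.1 and 2.40 at day 0 and of 3.80, 4.06 and 1.23 at BDL day 3. At BDL day 14 they were at 16.8, 22.3 and 3.81, while *Mpo*, of the same list, was at 0.270.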
